A study of Homo sapiens with 24 samples.

Results

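CSN1S1, SMR3B and SERPINB11, the genes of a milk protein, a salivary protein and a clade B serpin, were counted in sensory neuron cultures after exposure to IL-4 and IL-13. They are 3 of the 36468 entries of the count table, of which 23307 carry a gene name and the rest are unnamed loci. The 3 genes were chosen on their counts in these libraries, being near or below detection under vehicle and counted under IL-4+IL-13, so their difference between those groups is given as a description with no test. Each has 1 entry in the table.

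CSN1S1 encodes αS1-casein, a milk protein that is packed with calcium phosphate into casein micelles, and prolactin drives caseins in the lactating breast through STAT5. SMR3B encodes a small proline-rich protein of saliva, and its gene lies in the same cluster of secretory calcium-binding phosphoprotein genes as the caseins, statherin and the histatins. SERPINB11 encodes a clade B serpin, a family of mostly intracellular protease inhibitors that includes the squamous cell carcinoma antigens SERPINB3 and SERPINB4, which IL-4 and IL-13 are known to induce in airway and skin epithelium. Both cytokines signal through IL-4Rα and STAT6.

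Sensory neurons were differentiated from the wild-type human embryonic stem cell line H9 (H9WAO9 in the labels) by way of vagal neural crest spheroids, and polyadenylated RNA of whole cultures was sequenced. In each of 6 differentiation batches 1 culture received vehicle (PBS with bovine serum albumin), 1 received TGF-β (2 ng/ml), 1 received IL-6 at a dose the labels do not give, and 1 received IL-4 (10 ng/ml) with IL-13 (3 ng/ml). This gives 4 groups of 6 libraries. The exposure lasted 5 days, as the labels state for all but IL-6. All libraries come from 1 line, and the cultures held other cells besides neurons, so fewer cells of a type and less RNA per cell cannot be told apart. Between 33342682 and 39817784 reads per library were counted on genes.

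By markers the cultures were mixed. The summed CPM (counts scaled to the library total) of 8 neuronal markers ran from 1101 to 5233 over the 24 libraries, those of 8 mesenchymal markers from 3106 to 12972, and those of 12 epithelial markers from 29.7 to 98.2. KRT14, the keratin of basal epithelial cells, was at 0 in every library of the IL-4+IL-13, Vehicle and TGF-β groups. Both pluripotency markers together stayed at or below 0.138 CPM. Of the 24 libraries 4 were closer to another batch than to their own. Each library was compared with the libraries of the other 3 groups by the correlation of its deviations from its group mean across genes. The Vehicle library labelled batch 2 had a mean r of 0.04 with its own batch and of 0.43 with batch 4, and that labelled batch 4 had 0.15 with its own batch and 0.40 with batch 2. The TGF-β library of batch 4 had 0.39 with its own batch and 0.56 with batch 3, and the IL-4+IL-13 library of batch 4 had 0.31 and 0.52. Fold changes of the 3 genes, and of the called genes that the text turns on, are therefore also given over batches 1, 3, 5 and 6, a choice made after seeing the data.

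CSN1S1 and SMR3B lie on chromosome 4 and SERPINB11 on chromosome 18 of GRCh38.p14. In the RefSeq annotation CSN1S1 spans chr4:69931068-69946574, SMR3B spans chr4:70383131-70390244 and SERPINB11 spans chr18:63702304-63723893, and no other annotated gene overlaps any of them. The canonical GENCODE transcripts, all on the plus strand, have 16 exons and 998 nt for CSN1S1, 3 exons and 732 nt for SMR3B, and 8 exons and 1735 nt for SERPINB11. CSN1S1 and SMR3B are 437 kb apart. The RefSeq promoter windows of these neighbours, 300 bases around the gene start, are shown because they share a cluster and were counted in the same libraries. Capitals mark the letters TTCNNNGAA and the same repeat with 1 further N in its middle, the spaced inverted repeats that STAT proteins are known to bind, STAT6 favouring the wider spacing. Both patterns read the same on either strand.
CSN1S1 promoter, chr4:69930818-69931117, plus strand: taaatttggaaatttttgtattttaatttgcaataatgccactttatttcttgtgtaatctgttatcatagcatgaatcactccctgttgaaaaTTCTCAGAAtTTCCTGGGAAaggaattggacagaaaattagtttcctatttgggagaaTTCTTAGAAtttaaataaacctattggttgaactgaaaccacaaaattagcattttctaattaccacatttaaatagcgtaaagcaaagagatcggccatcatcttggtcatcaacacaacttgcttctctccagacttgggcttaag
SMR3B promoter, chr4:70382881-70383180, plus strand: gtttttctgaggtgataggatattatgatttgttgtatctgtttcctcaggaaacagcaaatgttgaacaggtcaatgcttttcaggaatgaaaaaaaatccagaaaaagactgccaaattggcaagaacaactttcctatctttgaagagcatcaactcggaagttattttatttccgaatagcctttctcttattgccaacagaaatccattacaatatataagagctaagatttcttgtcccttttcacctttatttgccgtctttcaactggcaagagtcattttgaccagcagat

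The CSN1S1 window held TTCNNNGAA at 2 places, which begin at positions -156 and -98 from the gene start, and the wider repeat at 1 place, which begins at position -146, just after the first match. No match overlaps another. The SMR3B window held neither. Of 35116 promoter windows of the same length, 7.66% held TTCNNNGAA, 6.44% held the wider repeat, 0.635% held both, and 0.456% held TTCNNNGAA at least 2 times. A match describes the letters of the window, and binding was not measured.

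CSN1S1 was counted in the IL-4+IL-13 libraries and nowhere else. Under IL-4+IL-13 its counts in batches 1 to 6 were 143, 5, 687, 406, 253 and 103, a sum of 1597. It had 0 counts in each of the 18 libraries of the Vehicle, TGF-β and IL-6 groups. A count of 0 over the 6 Vehicle libraries allows up to 0.0135 CPM (3 counts over the group, counting error only), against 7.27 CPM over the 6 IL-4+IL-13 libraries together (95% exact Poisson interval 6.92 to 7.64). Over the pooled libraries the level was 540-fold above that floor of Vehicle, with no allowance for the counting error of the 7.27 CPM. The fold is smaller with the low end of 6.92 CPM, or with the two-sided 95% limit of Vehicle, 0.0166 CPM. Batch 3 gave 687 of the 1597 counts, and the fold cannot be stated for batch 2 alone, with 5 counts against 0. The libraries of the group differed among themselves by far more than counting error: the mean was 7.41 ± 7.22 CPM (SD, n = 6), and batch 3 was 152-fold above batch 2.

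SMR3B was at a trace level under Vehicle and IL-6, and nearly absent under TGF-β. In batches 1 to 6 its counts were 4, 0, 0, 8, 2 and 12 under Vehicle. Under IL-6 they were 6, 2, 0, 8, 5 and 13, and under TGF-β a single library, that of batch 6, had counts, 2 of them. Under IL-4+IL-13 they were 115, 42, 151, 151, 135 and 191. The lowest IL-4+IL-13 library had 42 counts and the highest of the other 18 had 13. The choice of the gene partly fixes this split, and how many of all entries split in this way was not counted. The mean was 3.62 ± 1.52 CPM under IL-4+IL-13 and 0.113 ± 0.122 CPM under Vehicle (SD, n = 6 each), and the pooled ratio was 30.6 (95% counting interval 20.7 to 47.1). SMR3A, the close paralogue of SMR3B, was counted 2 times over the IL-4+IL-13 libraries. How reads shared by that pair were assigned is not given in the sources used here.

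SERPINB11 had low counts in all 3 other groups. In batches 1 to 6 these were 5, 0, 7, 4, 9 and 20 under Vehicle. They were 4, 0, 5, 12, 0 and 8 under TGF-β, and 6, 0, 4, 0, 10 and 19 under IL-6. Under IL-4+IL-13 they were 399, 68, 315, 378, 357 and 198. The lowest count under IL-4+IL-13 was 68 and the highest elsewhere was 20, a split that the choice of the gene again partly fixes. The mean was 7.79 ± 3.34 CPM against 0.201 ± 0.175 CPM under Vehicle (SD, n = 6 each), a pooled ratio of 38.6 (95% counting interval 28.7 to 53.2).

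**Figure D1:**
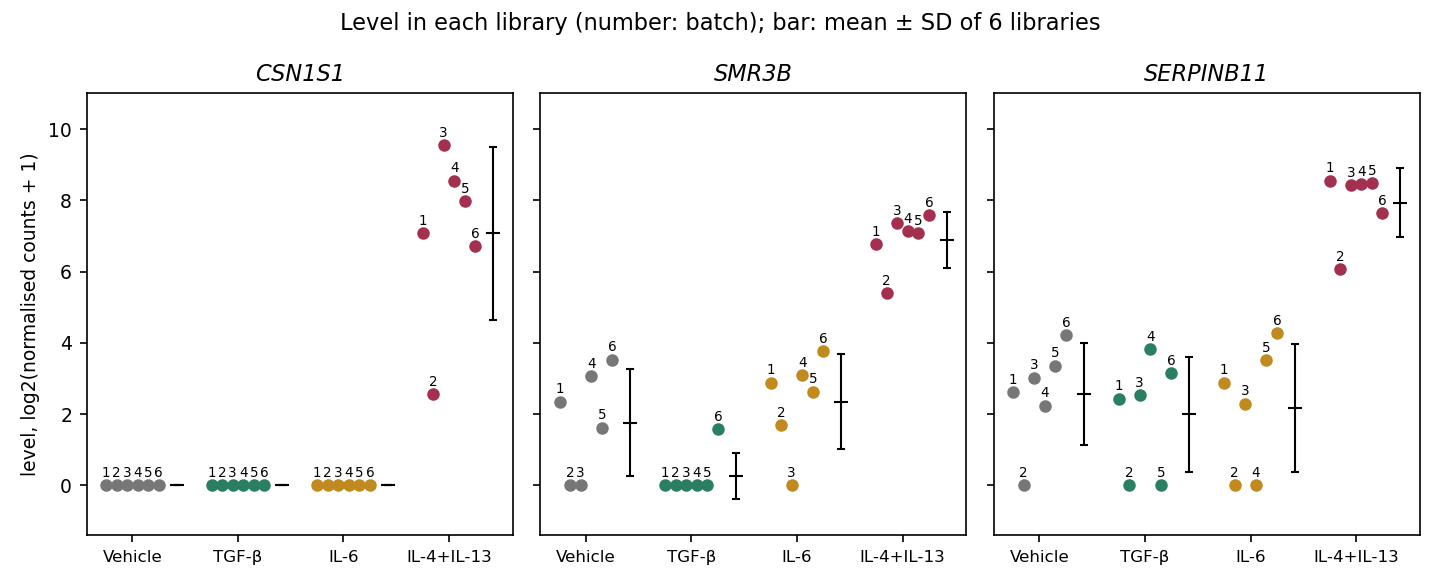
Level of each gene in each library as log2(normalised counts + 1), by group, with the batch number above each point and the mean ± SD of 6 libraries beside them. The IL-4+IL-13 points of all 3 genes lie above every other point of the same gene, which the choice of the genes partly fixes. CSN1S1 is at 0 in the other 3 groups, and the IL-4+IL-13 library of batch 2 is the lowest of its group in each panel.

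All 3 genes passed the filter of 10 counts over the 24 libraries, CSN1S1 only through the IL-4+IL-13 group. In that contrast 109 of 29377 entries tested were called (0.371%, by edgeR, with the adjusted p below 0.05 and the log2 fold change past 1 in size), 67 higher (0.228%) and 42 lower (0.143%). Since the genes were chosen on this contrast, nothing is read from their place in it. The fitted log2 fold change depends on the prior count for CSN1S1, which had no counts under Vehicle. It was 5.23 for SMR3B and 5.52 for SERPINB11, and 5.37 and 5.12 over batches 1, 3, 5 and 6 alone. All were modest in level even under IL-4+IL-13: by mean CPM CSN1S1 ranked 12869, SMR3B 14675 and SERPINB11 12705 of 36468 entries. Per kb of transcript the mean level was 7.42 ± 7.24 CPM per kb for CSN1S1, 4.95 ± 2.07 for SMR3B and 4.49 ± 1.92 for SERPINB11 (SD, n = 6). All 3 come from the same 6 libraries, and the differences between the genes within a library were not tested.

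The comparison of TGF-β with IL-6 used neither group by which the genes were chosen, and no member was called in it by edgeR. SMR3B, with 2 counts under TGF-β and 34 under IL-6, was lower under TGF-β in 5 of 6 batches and without counts in either library of the sixth (log2 fold change -3.64 ± 0.85 SE, edgeR adjusted p = 0.0968, unadjusted p = 0.000386). DESeq2 called it (log2 fold change -3.72, adjusted p = 0.0132), so this call rests on the choice of tool, and the adjusted p ran from 0.0132 to 1 over the alternatives. With 2 counts under TGF-β the size of the fold is poorly set: it was -1.67 with a prior count of 2, -5.08 without batch 6 and -3.28 over batches 1, 3, 5 and 6. SERPINB11 gave -0.28 ± 0.71 SE (edgeR adjusted p = 0.975), from -1.11 without batch 4 to 0.23 without batch 5 and -1.14 over batches 1, 3, 5 and 6, and CSN1S1 had no counts in either group. Of all entries 9 were called in this comparison by edgeR (0.0306%), and 248 by DESeq2.

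Against Vehicle, whose libraries the choice did use, SMR3B under TGF-β was lower in 4 batches and without counts in both libraries of the other two (log2 fold change -3.11 ± 0.88 SE, edgeR adjusted p = 0.195). Under IL-6 it gave 0.53 ± 0.57 SE (edgeR adjusted p = 0.884). SERPINB11 gave -0.44 ± 0.69 SE under TGF-β (edgeR adjusted p = 0.972) and -0.16 ± 0.66 SE under IL-6 (edgeR adjusted p = 0.977). The TGF-β value of SERPINB11 was -1.12 without batch 4, -0.16 without batch 6 and -0.034 without batch 5. Over batches 1, 3, 5 and 6 the values were -2.75 and 0.53 for SMR3B and -1.16 and -0.018 for SERPINB11, under TGF-β and IL-6 in that order, with adjusted p values by edgeR from 0.522 to 1. For SMR3B the TGF-β value was -1.30 with a prior count of 2. Neither gene passed the test, at counts where only large differences can be seen. edgeR called 42 entries (0.143%) for TGF-β and 0 (0%) for IL-6, where 1400 reached 0.05 before adjustment and 155 were called by DESeq2.

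Whether the 3 genes rose together over batches has a divided answer, which differs between levels and differences from Vehicle. By level all 3 were lowest in batch 2 among the IL-4+IL-13 libraries, but beyond that library their orders differed. CSN1S1 was highest in batch 3 (20.3 CPM), SMR3B in batch 6 (5.63 CPM) and SERPINB11 in batch 1 (10.2 CPM). The share of CSN1S1 in the counts of the 3 genes together went from 4.35% in batch 2 to 59.6% in batch 3. On levels as log2(normalised counts + 1), Pearson's r over the 6 libraries was 0.93 for CSN1S1 with SERPINB11 (two-sided exact permutation p = 0.0375, adjusted over the 3 pairs p = 0.112) with a Spearman's rho of 0.43 (exact permutation p = 0.419, adjusted p = 0.629). It was 0.86 for CSN1S1 with SMR3B (exact permutation p = 0.0778, adjusted p = 0.117), with a rho of 0.43 (exact permutation p = 0.419, adjusted p = 0.629). For SMR3B with SERPINB11 r was 0.78 (exact permutation p = 0.167, adjusted p = 0.167) and rho was -0.14 (exact permutation p = 0.803, adjusted p = 0.803). No pair passed after adjustment.

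These correlations rested on batch 2. Without it r was 0.073 for CSN1S1 with SMR3B, 0.51 for CSN1S1 with SERPINB11 and -0.81 for SMR3B with SERPINB11. Without the 2 libraries farthest from the median of the gene named first, which were batches 2 and 3 for CSN1S1 and batches 2 and 6 for SMR3B, r was -0.28, 0.62 and -0.98 over the remaining 4. Batch 6 acted the other way for the pairs with SMR3B. Without batch 6 r rose to 0.996 for CSN1S1 with SMR3B and to 0.95 for SMR3B with SERPINB11, and was 0.93 for CSN1S1 with SERPINB11. Taken as the difference from the Vehicle library of the batch, r was 0.23 for CSN1S1 with SMR3B (exact permutation p = 0.628). It was -0.11 for CSN1S1 with SERPINB11 (exact permutation p = 0.811) and 0.14 for SMR3B with SERPINB11 (exact permutation p = 0.75). By this difference batch 2 was lowest for CSN1S1 alone (2.55). In batch 2 SMR3B gave 5.39, within 4.06 to 7.36 over the 6 batches, and SERPINB11 gave 6.07, within 3.43 to 6.22. Neither had counts in the Vehicle library of batch 2. These differences rest on the Vehicle libraries of batches 2 and 4 too. Leaving out batch 4, whose IL-4+IL-13 library was closer to batch 3, left r of the levels at 0.86, 0.92 and 0.78 in the order of the pairs above.

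**Figure D2:**
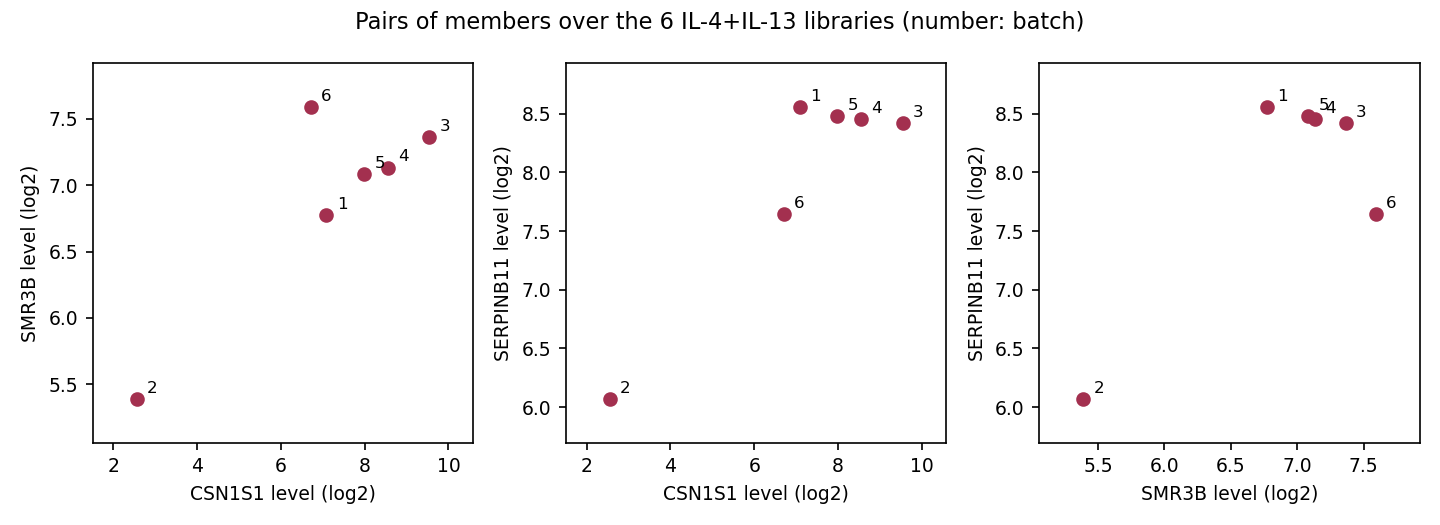
Levels, as log2(normalised counts + 1), of each pair of the 3 genes over the 6 IL-4+IL-13 libraries, 1 point per library with its batch number. The point of batch 2 lies apart at the lower left of each panel, and the other 5 points of SMR3B against SERPINB11 run downward.

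The IL-4+IL-13 library of batch 2 was low for other genes of the response as well. The 8 named genes whose levels over the 24 libraries were most like those of the members were ALOX15, CCL26, MME, CISH, KCNJ2, DUOX2, SLC26A4 and TMEM71. Their CPM in batch 2 stood at 18.8% (SLC26A4) to 43.1% (MME) of the median of the other 5 IL-4+IL-13 libraries, and 6 of the 8 were lowest there, the exceptions being CCL26, lowest in batch 1, and MME, lowest in batch 6. SMR3B at 29.5% and SERPINB11 at 19.1% lay in that range, and CSN1S1 at 1.88% lay below it. These genes were chosen over libraries that include batch 2, where the members are lowest, so their low values there are partly fixed by the choice. Chosen instead over the 20 libraries of the other batches, after seeing the data, the 8 genes held 7 of the same and ADGRD1, stood at 18.8% to 43.7% in batch 2, and 6 of the 8 were lowest there. ALOX15, an arachidonate lipoxygenase of alternatively activated macrophages and airway epithelium, had 4679 counts in batch 2 and between 13505 and 16617 in the other 5. Its highest library was 3.44-fold above its lowest in CPM, against 152-fold for CSN1S1. The amount of cytokine and the makeup of that culture were not measured apart, and their part in the low values was not tested.

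**Figure D3:**
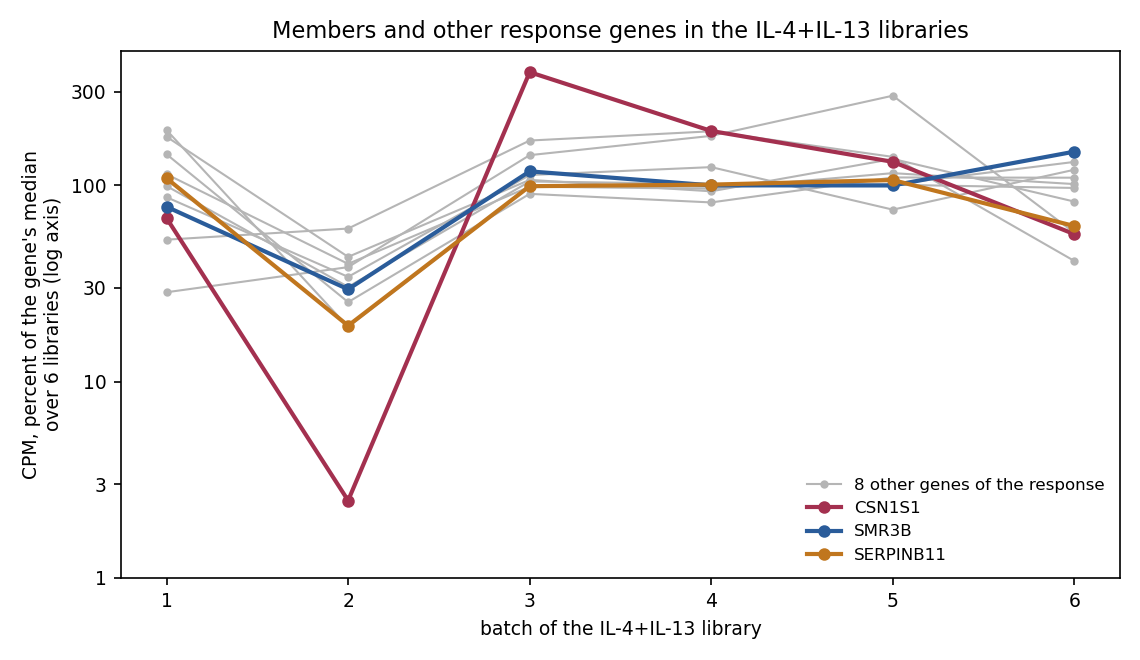
CPM of the 3 genes (coloured) and of the 8 response genes most like them (grey) in each IL-4+IL-13 library, as a percent of the gene's own median over the 6 libraries, on a log axis. Lines only join the values of a gene, since batches have no order, and CSN1S1 has the widest range, from batch 2 to batch 3.

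The epithelial markers as a group did not follow the rise of the 3 genes. Their summed CPM ran from 29.7 to 61.9 under IL-4+IL-13 and from 53.0 to 98.2 under Vehicle. Of the 11 markers tested 1 was called, and it was lower, where 0.143% of all entries were called lower. CDH1, which encodes E-cadherin, fell over all 6 batches (1388 counts under Vehicle and 455 under IL-4+IL-13, log2 fold change -1.89 ± 0.34 SE, edgeR adjusted p = 0.00957), by 1.73 over batches 1, 3, 5 and 6, and was not called without batch 1 or 3. ESRP1 had 9 counts under Vehicle and 0 under IL-4+IL-13, and KRT14 had 0 in both. KRT5, a basal keratin, had 10 and 40 counts and was higher in 6 of 6 batches without passing the test (log2 fold change 2.46 ± 1.01 SE, edgeR adjusted p = 0.458), and GRHL2 had 129 and 163 (0.34 ± 0.26 SE, edgeR adjusted p = 0.742). Within the IL-4+IL-13 group the libraries with more SERPINB11 were those with a higher mean level of the 12 epithelial markers. Pearson's r was 0.82 (two-sided exact permutation p = 0.00139, adjusted over 12 relations p = 0.0167). By mean level the order was the same in all 6 libraries (rho = 1.00, exact permutation p = 0.00278, the smallest 6 libraries allow for rho, adjusted p = 0.0333). That order is loosely set, since SERPINB11 lay between 8.42 and 8.56 in batches 1, 3, 4 and 5, from 315 to 399 counts. By the summed CPM of the same markers the orders differed, with batch 5 (54.3) below batches 3 (60.7) and 4 (59.4). Without batches 2 and 6, the farthest from the median, r was 0.99, but r over 4 libraries carries little: SMR3B with the epithelial markers gave -0.99, SERPINB11 with the neuronal markers -0.98, CSN1S1 with the neuronal markers 0.98 and CSN1S1 with the mesenchymal markers 0.99. Over 5 libraries r was 0.81 without batch 4 (exact permutation p = 0.0583) and 0.80 without batch 5 (exact permutation p = 0.075), past the threshold in neither case. The 12 relations set each of the 3 genes against the mean level of the neuronal, mesenchymal, glial and epithelial markers, and the other 11 had adjusted p values from 0.528 to 0.978 for r. For CSN1S1 and SMR3B with the epithelial markers r was 0.59 (exact permutation p = 0.219, adjusted p = 0.658) and 0.29 (exact permutation p = 0.642, adjusted p = 0.793). Whether SERPINB11 comes from the cells that carry these markers was not tested.

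None of the tested genes around CSN1S1 and SMR3B was called under IL-4+IL-13. RefSeq lists 38 other genes within 500 kb of either, of which 24 had an entry, 16 were tested and 0 were called in the IL-4+IL-13 contrast. Their median log2 fold change was 0.08 against -0.01 over all entries tested. With 0.371% of all entries called, 0 of 16 is no result about the region. Of the 10 counted genes between CSN1S1 and SMR3B, none had more than 24 counts in any IL-4+IL-13 library. CSN2, the β-casein gene and the nearest neighbour of CSN1S1 at 8682 bases, had 0 counts over the 6 IL-4+IL-13 libraries and 2 under Vehicle. CSN3, the κ-casein gene, had 10 and 16. The salivary genes were as low: STATH had 3 counts under IL-4+IL-13, HTN1 and HTN3 had 0 (first entry of each symbol), and MUC7, the salivary mucin beyond SMR3B, had 0. AMBN, the enamel protein ameloblastin, had 92 counts under IL-4+IL-13 and 15 under Vehicle and was higher in 6 of 6 batches, without passing the test (log2 fold change 2.57 ± 0.77 SE, edgeR adjusted p = 0.209, unadjusted p = 0.00334; 3.27 over batches 1, 3, 5 and 6). ODAM, an ameloblast-associated protein whose gene lies between the pair, was the 1 of the 16 called under TGF-β, where 0.143% of all entries were called. ODAM had 489 counts under TGF-β, 108 under Vehicle, 105 under IL-6 and 88 under IL-4+IL-13. Under TGF-β it gave 2.22 ± 0.38 SE (log2 fold change, edgeR adjusted p = 0.0153), and 2.12 over batches 1, 3, 5 and 6. It was not called without batch 3, 4 or 5. For TGF-β 0 entries were called in a fit of only the 2 groups or with no replicate block. Under IL-4+IL-13 ODAM gave -0.24 ± 0.40 SE (edgeR adjusted p = 0.907).

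Among the neighbours of SERPINB11, SERPINB4 and SERPINB3 were called. Of 26 other genes within 500 kb of SERPINB11, 13 had an entry and were tested, and 2 were called under IL-4+IL-13, both higher. Over all entries tested 0.228% were called higher. SERPINB4 went from 80 to 765 counts (log2 fold change 2.98 ± 0.45 SE, edgeR adjusted p = 0.00169, higher in 5 of 6 batches). SERPINB3 went from 34 to 262 (log2 fold change 2.60 ± 0.54 SE, edgeR adjusted p = 0.0237, higher in 6 of 6 batches). They end at -58048 and -40411 bases from SERPINB11 and are near-identical copies, so the split of reads between them is uncertain. SERPINB7, 29164 bases away on the other side, had 32 counts under Vehicle and 49 under IL-4+IL-13 (log2 fold change 0.76 ± 0.79 SE, edgeR adjusted p = 0.823), and SERPINB5, SERPINB12, SERPINB13 and SERPINB10 had at most 8 counts in a group. The median log2 fold change of the 13 was 0.34. Over batches 1, 3, 5 and 6 the values were 3.25 and 2.71. SERPINB3 was not called when batch 1, 3, 5 or 6 was left out, SERPINB4 was called with each batch left out in turn, and neither was called in a fit of only the Vehicle and IL-4+IL-13 libraries.

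**Figure D4:**
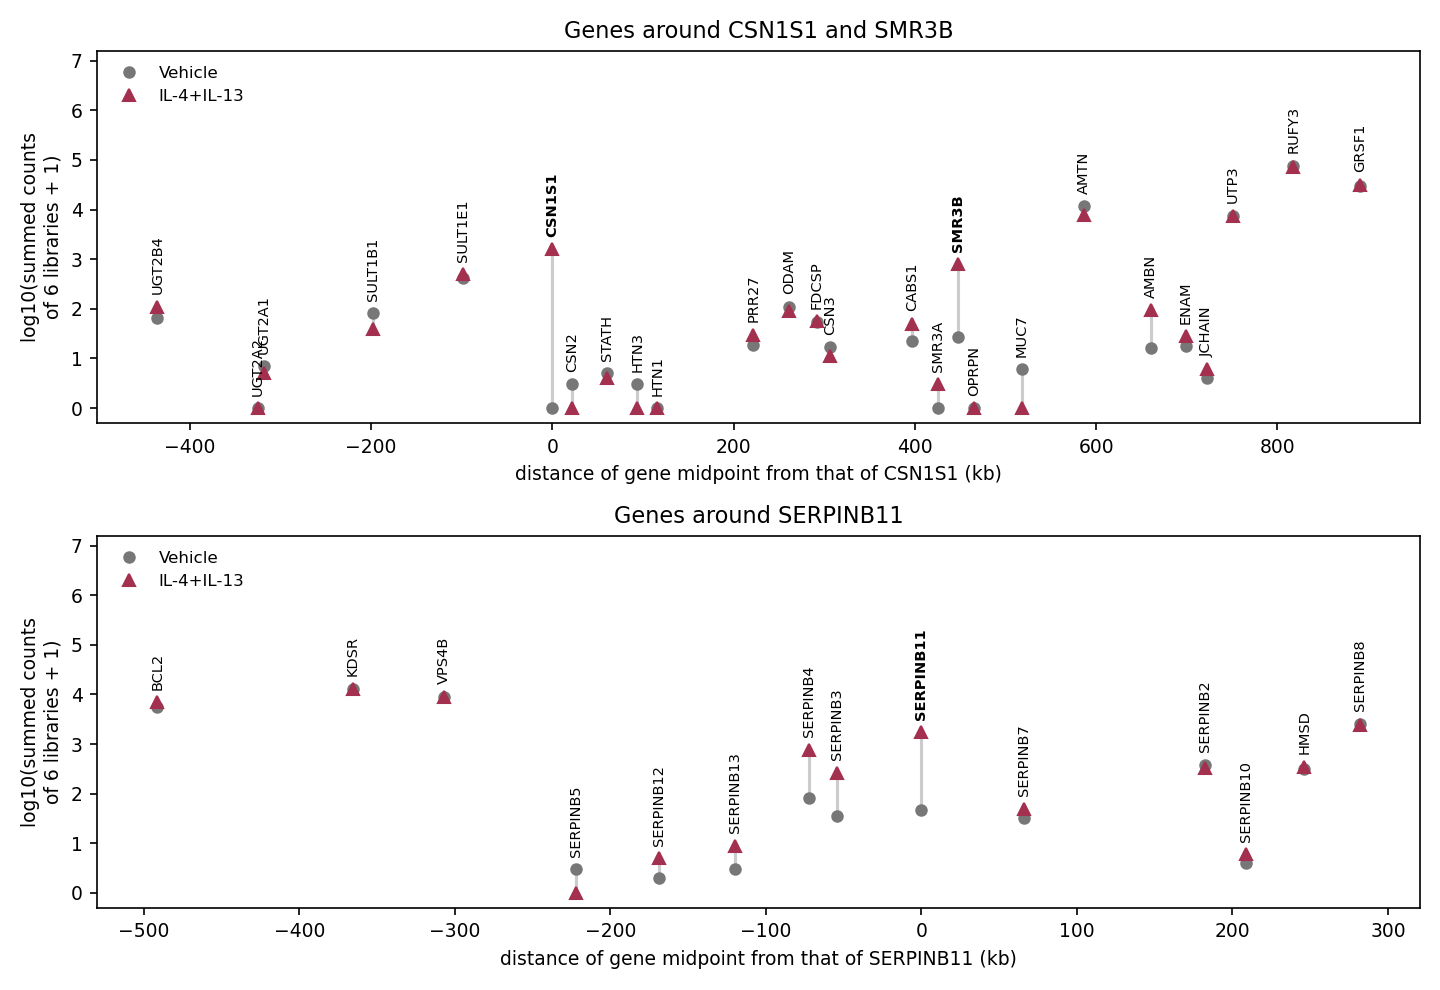
Summed counts of 6 libraries, as log10(sum + 1), for the counted genes within 500 kb of CSN1S1 or SMR3B (upper) and of SERPINB11 (lower), against the distance of the gene's midpoint in kb. Circles are Vehicle and triangles IL-4+IL-13. In the upper panel the 2 symbols lie far apart for CSN1S1 and SMR3B, and in the lower for SERPINB11, SERPINB4 and SERPINB3.

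Gene lists for milk, saliva, the airway response to IL-13 and the receptor pathway were described by counts of called genes, with the 3 members left out. They were written with earlier results of these data known. For the milk and lactating gland list 11 of 14 genes were tested and 0 were called, with a median log2 fold change of -0.02. STAT5B, which carries the prolactin signal together with STAT5A, had the most counts of that list. It had 9525 under Vehicle and 9125 under IL-4+IL-13 (log2 fold change -0.05 ± 0.07 SE, edgeR adjusted p = 0.894). STAT5A, with 1153 and 1026 counts, gave -0.22, and the prolactin receptor gene PRLR gave -0.50, neither of them called. For salivary and lacrimal secretion 13 of 27 genes were tested and 0 were called, with a median of -0.21. With 0.371% of all entries called, 0 of 11 and 0 of 13 are no result about milk or saliva genes. AQP5, the water channel of salivary acini, gave 0.15 ± 0.23 SE (edgeR adjusted p = 0.897).

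The list for the response of airway epithelium to IL-13 moved in part. Of 25 tested, 7 were called, all higher, with a median of 0.70. Over all entries tested 0.228% were called higher, the share to set beside both lists of this paragraph. They were ALOX15 (53 counts under Vehicle and 79939 under IL-4+IL-13, log2 fold change 10.58 ± 0.43 SE, edgeR adjusted p = 1.28e-10), the eotaxin CCL26 (19 and 5341 counts), the anion exchanger SLC26A4 (34 and 958), the cytokine signalling inhibitor CISH (303 and 5812), the calpain CAPN14, SERPINB3 and SERPINB4. POSTN, which encodes periostin and had the most counts of the list, gave 1.52 ± 0.45 SE and was not called (edgeR adjusted p = 0.224). Also uncalled were the mucin gene MUC5AC (0 counts under Vehicle and 27 under IL-4+IL-13), SPDEF (log2 fold change 0.30) and FOXA3 (0.08). CLCA1 had 0 counts in every group. Of the 19 genes from the IL-4 and IL-13 receptors to STAT, 2 were called, both higher: CISH and the decoy receptor IL13RA2 (15928 and 31786 counts, log2 fold change 1.31 ± 0.17 SE, edgeR adjusted p = 0.00077). STAT6 gave -0.13 ± 0.09 SE (edgeR adjusted p = 0.69).

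The epithelial identity list shares CDH1 with the markers. Of 25 tested genes 2 were called, both lower, with a median of -0.28, where 0.143% of all entries were called lower. KRT7, a simple-epithelium keratin, had 8183 counts under Vehicle and 2340 under IL-4+IL-13 (log2 fold change -1.58 ± 0.18 SE, edgeR adjusted p = 9.04e-05, lower in 6 of 6 batches, -1.83 over batches 1, 3, 5 and 6), and CDH1 was the other. The count was 1 without batch 1 or 3, 4 without batch 4, 1 in a fit of only the 2 groups, 1 in the 18 libraries without IL-6 and 0 with no replicate block. KRT8, with the most counts of the list, gave -0.11 ± 0.14 SE (edgeR adjusted p = 0.873). The clade B serpins had 2 of 12 called, SERPINB3 and SERPINB4, both higher, where 0.228% of all entries were called higher. Their median was 0.52. The casein cluster list had 0 of 15 called, which is no result about it with 0.371% of all entries called.

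**Figure D5:**
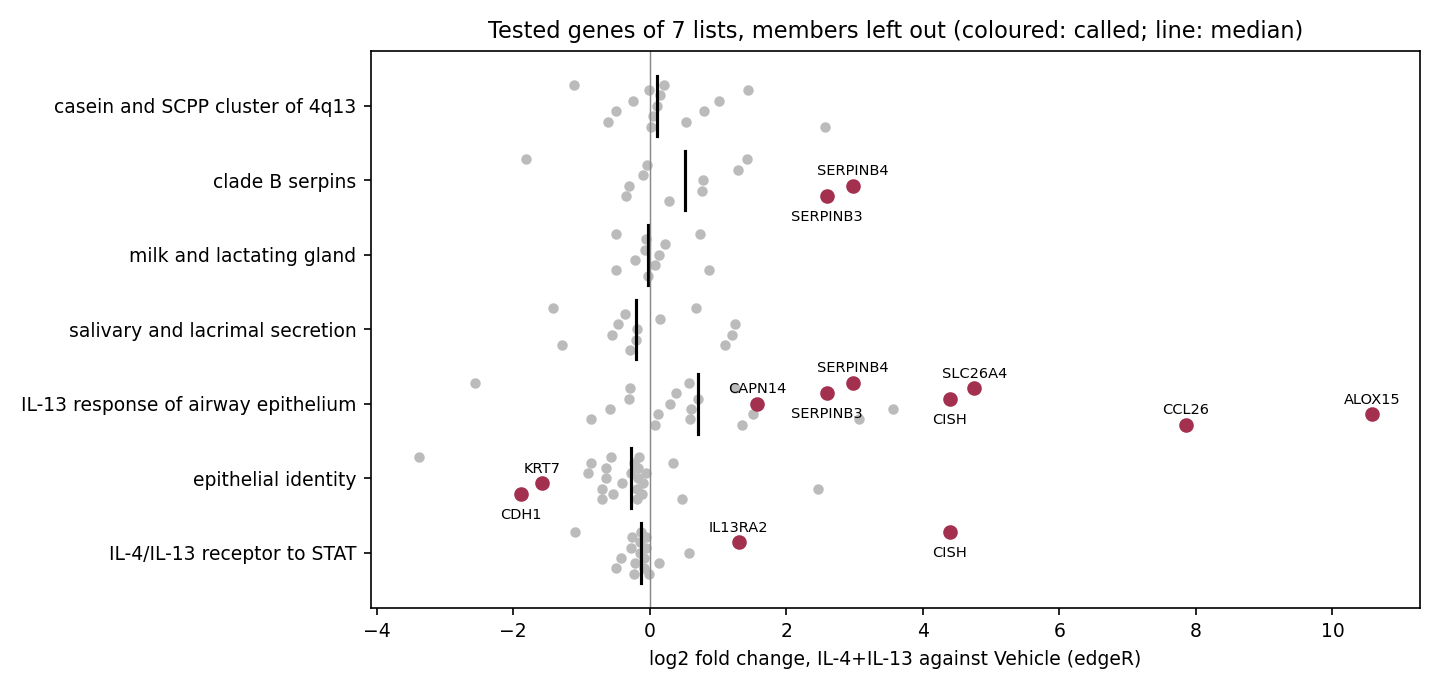
log2 fold change of IL-4+IL-13 against Vehicle (edgeR) for the tested genes of 7 lists, the 3 members left out. Coloured, labelled points were called, and the vertical line of each list is its median, which runs from -0.28 for epithelial identity to 0.70 for the airway response to IL-13.

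Few other entries were silent under Vehicle and counted under IL-4+IL-13. With at most 30 counts over the 6 Vehicle libraries, at least 60 over the 6 treated ones and a higher CPM in 6 of 6 batches, 26 entries met these limits under IL-4+IL-13, 4 under TGF-β and 1 under IL-6. The limits use the kind of values by which the genes were chosen, so the counts are a description. Of the 26, 13 had a gene name, CSN1S1 and SMR3B among them, and SERPINB11 with 45 Vehicle counts lay just outside. CSN1S1 and DUOXA2, the maturation factor of the dual oxidase DUOX2, were the named entries with 0 Vehicle counts, and DUOXA2 reached 63 counts. Besides CCL26 and AMBN, the others were IL1RL1 (12 and 155 counts), which encodes the IL-33 receptor, FHL5 (14 and 164), NOX3 (24 and 98), SIGLEC10 (16 and 95), OAS2 (24 and 95), CYTIP (14 and 69), ECSCR (22 and 66) and 1 of the entries named TCF19 (29 and 63). CCL26, with 19 counts under Vehicle and 5341 under IL-4+IL-13, had the most counts of the named 13.

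Over all 24 libraries the named genes most like the 3 members were mostly those of the same cytokine response. Likeness was the mean Pearson's r of log2 levels with the 3 genes, over the 16907 named entries that averaged 10 counts or more, and it follows largely from the split between the IL-4+IL-13 libraries and the rest, by which the genes were chosen. ALOX15 had the highest mean r (0.89), then CCL26 (0.89), the membrane metalloendopeptidase MME (0.88), CISH (0.85), the potassium channel gene KCNJ2 (0.84), DUOX2 (0.84), SLC26A4 (0.82), TMEM71 (0.82), the collagen VI chain COL6A1 (0.80) and FJX1 (0.80). The 3 members had r of 0.86 to 0.87 with each other on the same scale, no higher than that of CSN1S1 with ALOX15 (0.93). The points share their library and depth, and no test was made.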

How the data were processed

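The authors' sequencing provider trimmed adapters with Trimmomatic 0.30, per the submitters' processing notes, aligned the reads (build GRCh38.p14) and summarised them by gene. The deposited table holds raw read counts, with no normalization and no pooled libraries, for 24 libraries, 1 per group and differentiation batch. The aligner, the counting tool and the strand setting are not given in the sources used here. Without a strand setting, reads of overlapping antisense genes could not be told apart. The 3 genes and all gene lists were chosen with earlier results of these data known.

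Counts were tested with edgeR 4.0.16 in R 4.3.3 (TMM, robust quasi-likelihood F test, batch and treatment in 1 model of 24 libraries, Benjamini-Hochberg adjustment over 29377 entries with at least 10 counts in total). The study modelled batch and treatment too, but with DESeq2. Calls needed an adjusted p below 0.05 with a log2 fold change past 1 in size. SE values were derived from the fold change and the F statistic. DESeq2 1.42.0 was run here beside edgeR. The labels give the batch that pairs the libraries. Deviations from group means had a median r of 0.56 between libraries of 1 batch and of -0.13 between batches, over 20962 entries, and the lowest r within a batch was -0.05.

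Intervals and floors cover counting error only (95%, floor of 3 counts over a group). Levels were log2(normalised counts + 1). Correlations used exact permutation of 6 libraries in numpy 2.4.6. The named genes were the 3 members, their RefSeq neighbours within 500 kb, called or most counted genes of the lists, entries silent in Vehicle, and the 10 genes most alike in pattern. RefSeq neighbours and promoters were matched by symbol, and 2 of the 3 genes had a promoter entry. The edgeR script was tested on simulated counts. Alternatives changed scaling, filters, libraries, batches, pairing and prior count. The p-values measure the spread between batches of 1 cell line.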

Additional observations from a re-analysis of the deposited data

Results flagged for a closer look

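In 4 of 21 groups of 6 libraries 1 library lay far from the other 5 by Dixon's gap test on log2 levels. Chance marks about 1 group in 20 for continuous values, a rate that does not hold for levels at the floor of 0. The groups were those of the 3 members and of neighbours called in any comparison. In 3 of the 4 the library was that of batch 2 under IL-4+IL-13. SMR3B had a level of 5.39 there, with 42 counts, and SERPINB11 had 6.07, with 68 counts. ODAM had a level of 0 there, the floor of the scale. The fourth was SMR3B under TGF-β, where batch 6 had a level of 1.57 from 2 counts and the other 5 libraries had 0 counts. With 5 levels at 0 any count in the sixth is marked, so nothing is read from this mark.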

How the results depend on the processing

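The IL-4+IL-13 contrast gave 109 called entries in the model used, 299 by DESeq2, 25 in a fit of only the 2 groups, 72 in 18 libraries without IL-6, 13 with no replicate block, that is without pairing by batch, and 60 to 122 with 1 batch left out. TGF-β against Vehicle gave 42, then 252, 0, 6 and 0 in that order, 7 over batches 1, 3, 5 and 6, and 1 to 40 with 1 batch left out (1 without batch 3 or 5). IL-6 against Vehicle gave 0 and 155 by DESeq2. TGF-β against IL-6 gave 9, 248 by DESeq2, 29 in a fit of only the 2 groups, 22 with library totals only, 17 at a mean count of at least 10, 0 with no replicate block, and 0 to 22 with 1 batch left out. The lists and neighbours together had 10 called genes in the model used, where 0.371% of all entries were called. They had 6 with no replicate block and 6 in a fit of only the 2 groups. The cause was not tested.

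The fitted log2 fold change of CSN1S1 was 10.99, and 6.65 with a prior count of 2, since Vehicle is at 0. SMR3B in TGF-β against IL-6 was called by DESeq2 alone (-3.72). r of CSN1S1 with SERPINB11 was 0.84 on log2(CPM + 1) (exact permutation p = 0.05), -0.11 as a difference from Vehicle, 0.62 without the 2 farthest libraries and 0.51 to 0.97 with 1 left out. r of CSN1S1 with SMR3B was 0.23 as a difference from Vehicle, -0.28 without the 2 farthest and 0.073 to 0.996 with 1 left out. In the same order r of SMR3B with SERPINB11 was 0.14, -0.98, and -0.81 to 0.95. r of SERPINB11 with the epithelial markers was 0.80 to 0.92 with 1 left out, a choice made after seeing the data. With a Vehicle limit of 10 counts 7 entries were silent for IL-4+IL-13, 0 for TGF-β and 0 for IL-6, and with 60 counts 55, 21 and 15. Counts of 0 to 20 limit what can be seen of the 3 genes outside IL-4+IL-13.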
